A study of Rattus norvegicus with 16 samples.

Results

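The response of F344 retina to cyclic hyperoxia on post-natal day 6 was read from 4 of the 16 arrays of the series, 2 of hyperoxia-exposed and 2 of room air-exposed Fischer (F344) rats, chosen by their sample titles. All 14324 genes named by 1 symbol were tested, and every difference is hyperoxia minus room air on the log2 scale, on which 1 unit is a 2-fold change.

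The series set F344 rats, generally known as resistant to oxygen-induced retinopathy, against susceptible Sprague Dawley (SD) rats. In the hyperoxia groups, mothers and pups entered a chamber within 12 h of birth that switched every 24 h between 80% and 21% oxygen, and the room air groups are of the same age. The level breathed just before day 6 is not given in the sources used here. The oxygen effect of day 6 is also set against that of F344 rats of day 5, 2 hyperoxia and 2 room air arrays treated in the same way, and against that of SD rats of day 6, again 2 and 2. Each array holds retinal RNA pooled from several rats. The design text names 3 rats and 2 litters for the pools, and no label ties an array to a litter, so the p-values measure only the spread between pools. The labels name no transgene or deletion in any group.

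In the newborn rat, vessels grow across the retina from the optic nerve, led by astrocytes and by the tissue's own shortage of oxygen. When oxygen is low, hypoxia-inducible factor (HIF) escapes degradation and raises vessel growth factors, glycolytic enzymes and genes that curb mitochondrial respiration, and high oxygen switches this programme off. Alternating oxygen levels thus expose the growing vessels to repeated swings of the same signal, while neurons and glia of the retina are still being born and wired.

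The markers of the labelled tissue were present: 19 of 21 rod genes, 14 of 14 retinal progenitor genes and 13 of 16 ganglion cell genes lay above the median of all deposited values, 5.47, on all 4 arrays, against 0 of 13 lens genes. Hyperoxia replicate 2 differed from its partner more than any other pair of replicates did. It correlated with replicate 1 at r = 0.987 across genes, which are not independent, against 0.992 to 0.997 in the other 7 groups, and 70 genes lay over 1 log2 unit apart, against 0 in the room air pair and 1 to 34 elsewhere. Its interquartile range was 2.81 against 3.10 in replicate 1 and 3.08 and 3.11 in room air. The difference followed expression level. Replicate 2 minus replicate 1 had a median of 0.13 in the lowest of 4 equal groups of genes by level and of −0.24 in the highest, against −0.02 and 0.00 in the room air pair. The genes that set the pair apart were partly cell type markers. Replicate 2 read lower for Isl1, a bipolar and ganglion cell factor, at 7.52 against 8.85, for the bipolar protein Scgn at 5.68 against 7.34, for the serine synthesis enzyme Psat1 at 6.37 against 8.05, and for the matrix protein Optc at 4.70 against 6.39. It read higher for the lens crystallins Crygd, at 6.35 against 4.57, and Cryba1, at 7.01 against 5.36, and for the proteasome cofactor Sem1, at 10.34 against 9.01. The room air arrays lay with replicate 2 for Scgn, Optc and both crystallins, between the replicates for Isl1, and with replicate 1 for Psat1 and Sem1. The mean level of the 13 lens genes was 4.65 in hyperoxia replicate 1 and 5.10 in replicate 2, against 5.02 and 5.26 in room air. The part of lens tissue in the results was not tested.

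**Figure D1:**
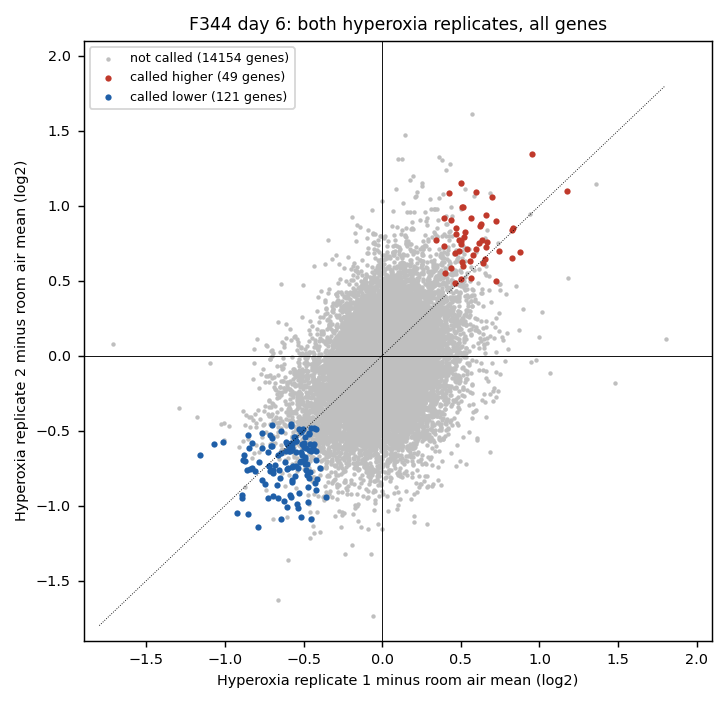
Each point is a gene, with the log2 difference of hyperoxia replicate 1 from the room air mean on the x axis and that of replicate 2 on the y axis; red marks the 49 genes called higher and blue the 121 called lower. Both axes share the room air mean. The called genes lie in the corners where both replicates moved the same way, and most of them lie further from 0 in replicate 2.

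Hyperoxia raised 49 genes (0.342% of all tested) and lowered 121 (0.845%) on day 6, at an adjusted p under 0.05 with limma and Benjamini-Hochberg adjustment, 170 genes in all (1.19%). The changes were moderate. Rises had a median of 0.66 and falls of −0.65, and 2 of the 170, Ndufb3 and Id3, moved by over 1 log2 unit. Ccdc107 lay 1.36 and 1.15 above the room air mean in hyperoxia replicates 1 and 2 but did not pass. Rises had a median difference of 0.56 in hyperoxia replicate 1 and 0.77 in replicate 2, with 41 of 49 larger in replicate 2, and falls of −0.58 and −0.70, with 88 of 121 larger there. All 170 had both hyperoxia arrays on 1 side of both room air arrays, as had 6115 of all genes (42.7%), 2961 above (20.7%) and 3154 below (22.0%). No call held in every fit that left out 1 array. Without hyperoxia replicate 2, limma called 0 genes (1933 at an unadjusted p under 0.05, against 2522 in the full fit). It also called 0 without room air replicate 1 (1607) or room air replicate 2 (1603). Without hyperoxia replicate 1, 1621 genes were called. The count was 31 without either SD hyperoxia array of day 5 and 61 without either of day 6, arrays that enter only the estimate of the spread. With the arrays quantile-normalized again the split was 48 rises and 67 falls, against 49 and 121. A gene below is said to have risen or fallen where it passed in the full fit, and this dependence applies to each.

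**Figure D2:**
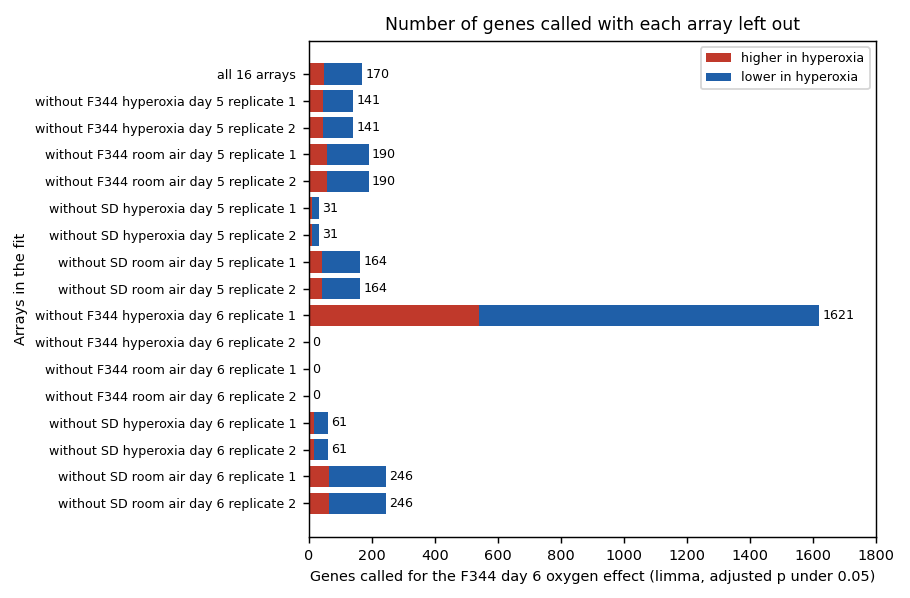
Bars give the number of genes called for the F344 day 6 oxygen effect with all 16 arrays and with each array left out in turn, red for genes higher and blue for genes lower in hyperoxia. The count ranges from 0 without hyperoxia replicate 2 or either room air array of day 6 to 1621 without hyperoxia replicate 1.

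A few oxygen-regulated genes rose with cyclic hyperoxia. Of 30 measured hypoxia-responsive genes outside glycolysis, 3 rose and 0 fell, against 0.342% and 0.845% of all genes. On both hyperoxia arrays 12 lay above room air and 2 below (20.7% and 22.0% of all genes did). The median was 0.14 against 0.00 over all genes. The list's median was 0.21 in hyperoxia replicate 1 and 0.12 in replicate 2. The 250 bases before the start sites of the 3 genes that rose and of Ankrd37, which differed strongly between days, are shown because the factor's core motif can be read in them. Capitals mark matches to ACGTG or GCGTG on either strand, so that CACGT and CACGC are matches read from the other strand, and matches may overlap, as in the CACGTG of Ankrd37. The sequences are from RefSeq, assembly GRCr8, read in the gene's direction: Ak4 at chr5:121154886-121155135 on the plus strand, Higd1a at chr8:130400889-130401138 on the minus strand, Fam162a at chr11:78186051-78186300 on the plus strand and Ankrd37 at chr16:53001257-53001506 on the plus strand.
Ak4: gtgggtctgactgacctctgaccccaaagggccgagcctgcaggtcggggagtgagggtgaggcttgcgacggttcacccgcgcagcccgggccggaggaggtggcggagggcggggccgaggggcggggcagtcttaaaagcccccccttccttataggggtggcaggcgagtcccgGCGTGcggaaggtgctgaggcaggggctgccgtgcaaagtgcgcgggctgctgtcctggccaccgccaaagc
Higd1a: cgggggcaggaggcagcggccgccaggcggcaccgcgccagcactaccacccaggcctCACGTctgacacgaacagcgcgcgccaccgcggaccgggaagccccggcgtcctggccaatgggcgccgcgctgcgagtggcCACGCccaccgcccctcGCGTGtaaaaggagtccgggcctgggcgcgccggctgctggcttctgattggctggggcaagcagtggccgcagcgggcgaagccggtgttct
Fam162a: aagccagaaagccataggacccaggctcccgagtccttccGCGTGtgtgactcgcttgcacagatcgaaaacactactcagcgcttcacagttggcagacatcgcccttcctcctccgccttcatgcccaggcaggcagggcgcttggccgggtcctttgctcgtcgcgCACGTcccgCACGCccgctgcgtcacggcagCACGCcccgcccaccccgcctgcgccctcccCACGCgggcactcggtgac
Ankrd37: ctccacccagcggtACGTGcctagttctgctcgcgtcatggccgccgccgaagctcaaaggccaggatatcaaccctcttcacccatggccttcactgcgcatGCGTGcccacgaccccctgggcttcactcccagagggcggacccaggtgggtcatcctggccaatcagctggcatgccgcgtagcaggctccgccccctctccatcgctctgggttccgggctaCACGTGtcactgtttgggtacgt
They hold 1, 3, 5 and 4 matches. At least 1 match stood before 19 of the 27 list genes with a sequence (70.4%), against 46.95% of the 11806 genes on the array with one and 37.88% of all 27457 sequences of this length in the table. The list's median GC content was 66.4%, against 57.2% over the genes on the array. A match is a description of letters and shows no binding.

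Ak4, a mitochondrial adenylate kinase (probe set 10870261), read 7.36 and 7.71 in hyperoxia replicates 1 and 2 and 6.50 and 6.81 in room air. Both hyperoxia arrays were clearly above, by 1.84-fold in all (0.88 ± 0.15, SE, n = 2 arrays per group, adjusted p = 0.0191 with limma). Without hyperoxia replicate 2 its adjusted p was 0.109. Higd1a, a small protein of the inner mitochondrial membrane that is known to help cells endure low oxygen (10914415), read 8.56 and 8.57 against 7.66 and 7.80 (1.78-fold, adjusted p = 0.0191). Its replicates were the closest among the 3 genes. Fam162a, a mitochondrial HIF target (10751450), read 9.97 and 10.50 against 9.55 and 9.61 (1.57-fold, adjusted p = 0.0491), with replicate 2 further above. Ankrd37, an ankyrin repeat protein induced by HIF (10788224), read 7.71 and 8.04 against 7.29 and 7.34 and did not pass (0.56 ± 0.15, adjusted p = 0.0681). Pdk1, the kinase that restrains pyruvate oxidation, differed by 0.34 and the mitophagy receptor Bnip3 by 0.33, each with both hyperoxia arrays above and without passing (adjusted p = 0.125 and 0.172). Other targets did not pass either. Vegfa, the main vessel growth factor of the retina (10921772), read 9.33 and 9.37 against 9.10 and 9.38 (0.11 ± 0.13, adjusted p = 0.711), and the arrays overlapped. Egln3, the oxygen sensor that marks HIF for degradation, differed by 0.26 with both hyperoxia arrays above room air (adjusted p = 0.382), the lactate exporter Slc16a3 by 0.32 (0.495) and the glucose transporter Slc2a1 by 0.08 (0.871). Ndrg1, a stress-induced growth regulator, lay below room air on both arrays (−0.43, adjusted p = 0.119).

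Of 22 glycolytic genes, 0 rose and 0 fell, 5 lay above and 4 below room air on both arrays, and the median was 0.04. The replicates were on opposite sides, with medians of 0.18 and −0.09. The nearest to the threshold were the isomerase Gpi, at 11.04 and 10.82 against 11.22 and 11.22 (−0.29, adjusted p = 0.184), and the glycogen branching enzyme Gbe1, at 8.39 and 7.85 against 7.68 and 7.78 (0.39, adjusted p = 0.188).

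Most subunits of the respiratory chain read higher on both arrays. Of 48 measured, 4 rose and 0 fell, against 0.342% and 0.845% of all genes. On both arrays 31 lay above room air and 1 below (20.7% and 22.0% of all genes did). The median was 0.32, at 0.30 in replicate 1 and 0.32 in replicate 2. In F344 rats of day 5 the list's median was 0.21, and 0 members passed the test of a difference between days. Ndufb3, an accessory subunit of complex I (10923576), had the largest rise among called genes. It read 9.44 and 9.83 in hyperoxia against 8.45 and 8.52 in room air, 2.22-fold (1.15 ± 0.15, adjusted p = 0.0105 with limma). Its hyperoxia arrays lay a full 0.95 and 1.34 above the room air mean. Cox7b, a subunit of cytochrome c oxidase, read 8.82 and 9.06 against 8.16 and 8.22 (0.74, adjusted p = 0.0427). Ndufa8 of complex I read 8.16 and 8.44 against 7.69 and 7.66 (0.63, adjusted p = 0.0418). Sdhd, the membrane anchor of complex II, read 9.56 and 9.51 against 8.99 and 9.0 (0.54, adjusted p = 0.0465). The member below was Ndufa10, at 6.67 and 7.06 against 7.29 and 7.26. Genes outside the list that build the chain rose too, named here after their values were seen: the copper chaperone Cox17 (0.74), the cytochrome oxidase assembly factor Coa3 (0.62) and the complex I assembly factor Tmem126b (0.71). The mitochondrial RNA-binding protein Slirp rose by 0.67 and the mitochondrial ribosome proteins Mrpl49 and Mrpl21 by 0.59 and 0.56. Mrpl38, of the same ribosome, fell, from 7.42 and 7.30 to 6.64 and 6.41 (−0.84, adjusted p = 0.0286). Ucp2, an inner membrane carrier known for uncoupling, fell as well, from 8.63 and 8.47 to 7.66 and 7.6 (−0.92, adjusted p = 0.0191).

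Most genes of protein synthesis and breakdown read higher, with few single genes passing. Of 66 cytosolic ribosomal protein genes, 43 lay above room air on both arrays (20.7% of all genes did) and 3 below (22.0%), and 0 were called either way; the median was 0.28, at 0.13 in replicate 1 and 0.38 in replicate 2. Rpl7 was nearest the threshold, at 10.69 and 11.09 against 10.36 and 10.17 (adjusted p = 0.0569). Rpl36al1, outside the list and one of a family of near-identical copies, so that its value is uncertain, rose (0.76, adjusted p = 0.0419). Of 30 proteasome subunits, 23 lay above and 2 below, beside the same shares of all genes, 0 were called, and the median was 0.25 (0.30 and 0.22 in the replicates). Psma6 read 10.47 and 10.61 against 10.06 and 9.86 (adjusted p = 0.0596). Of 37 spliceosome components, Snrpg, a core protein of the small nuclear ribonucleoproteins, rose from 8.52 and 8.48 to 9.0 and 9.65 (0.83, adjusted p = 0.0467), and Sf3a1, which helps select the branch point, fell from 8.57 and 8.46 to 7.94 and 7.67 (−0.71, adjusted p = 0.0438). The list's median was 0.04. Among the 12 largest rises were also Cwc15, a spliceosome-associated protein (0.81), Mettl5, which methylates ribosomal RNA (0.76), Calm2, which encodes calmodulin (0.84), the intraflagellar transport protein Ift25 (0.84), the detoxifying deaminase Rida (0.80) and the phosphatase Dusp19 (0.78). Calm2 read 11.14 and 11.63 against 10.61 and 10.47. Named after their values were seen, Fbl, Gar1 and Imp3, which process ribosomal RNA, rose by 0.64, 0.55 and 0.47, and Ostc and Sec11c, which glycosylate and cleave proteins entering the secretory pathway, rose by 0.74 and 0.68.

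**Figure D3:**
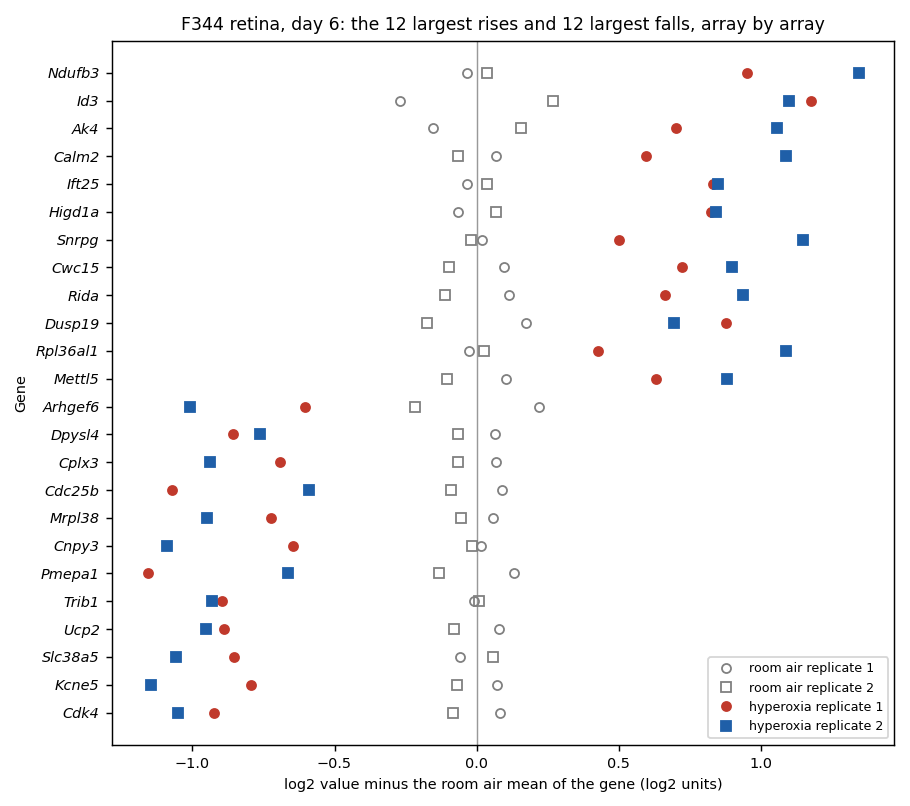
Rows are, among called genes, the 12 with the largest rise and the 12 with the largest fall. The x axis is the log2 value of each array minus the room air mean of the gene. Filled red circles and blue squares are hyperoxia replicates 1 and 2, open symbols the room air replicates. In each row both hyperoxia arrays lie outside the room air pair, from 0.95 and 1.34 for Ndufb3 to −0.92 and −1.05 for Cdk4.

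Cdk4 and Cdc25b were among the 12 largest falls, and 20 of 34 genes of the cell cycle list read lower on both arrays, with 0 called. Cdk4, the cyclin-dependent kinase that drives cells into the cycle (10895797), had the largest fall among called genes. It read 10.35 and 10.23 in hyperoxia against 11.36 and 11.20 in room air, 1.98-fold lower (−0.99 ± 0.15, adjusted p = 0.0191 with limma). Both hyperoxia arrays were well below the room air pair. That pair read high beside other room air groups, whose means were 10.75 in F344 of day 5 and 10.64 in SD of day 6. Cdc25b, a phosphatase that opens mitosis, read 6.71 and 7.19 against 7.87 and 7.69 (−0.83, adjusted p = 0.0338), with replicate 1 the lower. Of 34 other genes of the cell cycle, 0 were called, and the median was −0.17, at −0.12 and −0.16 in the replicates. On both arrays 20 lay below room air (22.0% of all genes did) and 5 above (20.7%). The list's mean level was 7.07 and 7.03 in the hyperoxia arrays. Over all genes of levels 6.12 to 7.95, 1 of the 4 groups by level, the medians were −0.01 in replicate 1 and −0.22 in replicate 2. The part of expression level in these counts was not tested. Plk1, a mitotic kinase, read 6.99 and 7.18 against 7.68 and 7.41 (−0.46, adjusted p = 0.111), and the replication clamp Pcna lay on the other side (0.41, adjusted p = 0.209). Of 14 retinal progenitor genes, 0 were called, 7 lay below and 2 above, beside those shares, and the median was −0.29. Their medians were −0.16 and −0.26 in the replicates, at a mean level of 8.84 and 8.77. Over all genes of the highest group by level the medians were 0.07 and −0.21. The eye field factor Six3 read 7.02 and 7.09 against 7.32 and 7.39 (−0.30, adjusted p = 0.161). Tead2 and Nes, a partner of the growth regulator YAP and an intermediate filament protein of neural progenitors, fell by 0.80 and 0.66 and are named after their values were seen.

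The remaining genes among the 12 largest falls have varied roles. Trib1, a pseudokinase that steers protein degradation, read 8.38 and 8.35 against 9.27 and 9.29 (−0.91, adjusted p = 0.0191), with both pairs tight. Pmepa1, an inhibitor of TGF-beta signalling, read 6.79 and 7.29 against 8.08 and 7.82 (−0.91, adjusted p = 0.0297). Dpysl4, of a family that guides axon growth, read 8.17 and 8.27 against 9.09 and 8.97 (−0.81 ± 0.11, adjusted p = 0.0105), the smallest adjusted p of any gene together with Ndufb3. Kcne5, an accessory subunit of potassium channels, fell from 7.79 and 7.65 to 6.92 and 6.57 (−0.97, adjusted p = 0.0230), Cnpy3, a chaperone of Toll-like receptors, by 0.87, and Arhgef6, an activator of Rac and Cdc42, by 0.81. Named after their values were seen, Fyn, Gnai2, Rab11b, Pfn1 and Rhob, which signal to membranes and actin, fell by 0.62, 0.79, 0.79, 0.79 and 0.62. Also named after their values were seen, the transporters Slc6a8 for creatine, Slc38a3 for glutamine and Slc7a1 for cationic amino acids fell by 0.79, 0.67 and 0.59.

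Of the vessel lists, those of endothelial and of sprouting genes held 1 called gene each. Of 28 endothelial markers 1 fell (0.845% of all genes did) and 0 rose, 9 lay below and 5 above room air on both arrays (22.0% and 20.7% of all genes did), and the median was −0.07, at −0.01 and −0.14 in the replicates. The member that fell was Slc38a5, an amino acid transporter of retinal endothelium (10936959): 4.38 and 4.17 in hyperoxia against 5.17 and 5.29 in room air (−0.96 ± 0.19, adjusted p = 0.0328). All 4 readings are below the median of all values, where background can make a difference look smaller. At least 1 of the group means lies below it for Id3, Arhgef6, Plxnd1, Guca1a, Tm4sf1 and Tie1 too. Tie1, an endothelial receptor kinase, read 4.82 and 4.70 against 5.16 and 5.39 (−0.52, adjusted p = 0.0596). Only 3 of the 28 markers lay above that median on all 4 arrays, and in pooled tissue fewer vessel cells and less RNA per cell cannot be told apart. Of 18 tip cell and Notch genes Plxnd1, the receptor through which semaphorin restrains sprouting, fell from 5.99 and 5.94 to 5.18 and 5.26 (−0.74, adjusted p = 0.0330). Of 37 angiogenic ligands and receptors 0 were called, 9 lay above and 12 below, near the shares over all genes for the 9 and above them for the 12. Angpt2, which loosens vessels, read 6.04 and 5.50 against 5.42 and 5.36 (0.38, adjusted p = 0.204). Igf1, a growth factor that retinal vessels need, differed by 0.26 (adjusted p = 0.294), Epo by 0.26 (0.313), Adm by 0.20 (0.470) and Edn2 by −0.11 (0.642). Tm4sf1, a membrane protein of endothelium outside these lists, rose from 4.99 and 4.94 to 5.69 and 5.47 (0.61, adjusted p = 0.0491). Of 14 pericyte and smooth muscle genes 0 were called, with 6 above and 4 below room air on both arrays and a median of 0.02.

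Among glia, 1 of 11 astrocyte genes rose (0.342% of all genes did) and 0 fell. On both arrays 2 lay above room air and 2 below, near the 20.7% and 22.0% of all genes. The list's median was 0.02, at 0.01 in replicate 1 and −0.05 in replicate 2. Id3, which holds back differentiation factors (10872972), read 6.23 and 6.16 in hyperoxia against 4.79 and 5.32 in room air (1.14 ± 0.24, adjusted p = 0.0396), with room air replicate 1 far below its partner. Gfap, the filament of stressed glia, read 4.95 and 4.59 against 4.78 and 5.08 (−0.16, adjusted p = 0.655), and the arrays overlapped. Of 13 Muller glia genes and of 13 genes of glial stress 0 were called. On both arrays 6 Muller glia genes lay above room air and 3 below. Their median was −0.03, at 0.08 in replicate 1 and −0.12 in replicate 2. Of the glial stress genes 1 lay above and 2 below, with a median of −0.10.

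The replicates lay on opposite sides of room air for several neuronal lists. They did so too in the highest of the 4 groups of genes by level, with medians of 0.07 in replicate 1 and −0.21 in replicate 2. In the next group both medians were below room air, at −0.01 and −0.22. Of 21 rod genes 1 rose (0.342% of all genes did) and 0 fell. The median was 0.15, made of 0.29 in replicate 1 and −0.16 in replicate 2. The member that rose was Guca1a, a calcium sensor of phototransduction, at 4.82 and 4.80 against 4.21 and 4.15 (0.63, adjusted p = 0.0286). The 11 bipolar genes split in the same manner, at 0.24 and −0.20, and the 16 ganglion cell genes at 0.08 and −0.16; 0 of either list and 0 of 13 cone genes were called. Amacrine and horizontal cell genes had lower medians in both replicates, at −0.18 and −0.16, with 10 of 20 below room air on both arrays (22.0% of all genes were), 3 above and 0 called. Calb2, a calcium-binding protein, read 9.89 and 9.47 against 10.17 and 10.23 (−0.52, adjusted p = 0.0884), and Gad1, which makes GABA, read 7.86 and 7.45 against 8.25 and 8.06 (−0.49, adjusted p = 0.116). Cplx3, a complexin of ribbon synapses outside these lists, fell from 9.06 and 8.93 to 8.31 and 8.06 (−0.81, adjusted p = 0.0323). Of 31 neural adhesion genes 15 lay below and 1 above, of 41 potassium channel genes 17 below and 2 above, and of 39 transmitter receptor genes 11 below and 4 above. Over all genes 22.0% lay below and 20.7% above, so the receptor count below is near that share. Of these 3 lists 0 members were called.

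Most clock genes read lower on both arrays. Of 14 measured, 1 fell (0.845% of all genes did) and 0 rose, 10 lay below room air on both arrays (22.0% of all genes did), 0 above, and the median was −0.36, at −0.19 in replicate 1 and −0.41 in replicate 2. Nr1d1, the repressor of the clock's feedback loop (10746955), fell from 7.65 and 7.51 to 6.86 and 6.85 (−0.73 ± 0.15, adjusted p = 0.0388). Per3, Per1 and Nfil3, which also cycle over the day, differed by −0.56, −0.45 and −0.61 and did not pass (adjusted p = 0.0561, 0.0626 and 0.0684). Bmal1, the activator of the loop, differed by −0.12. The hour at which the rats were killed is not given in the sources used here, and its part in these differences was not tested.

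**Figure D4:**
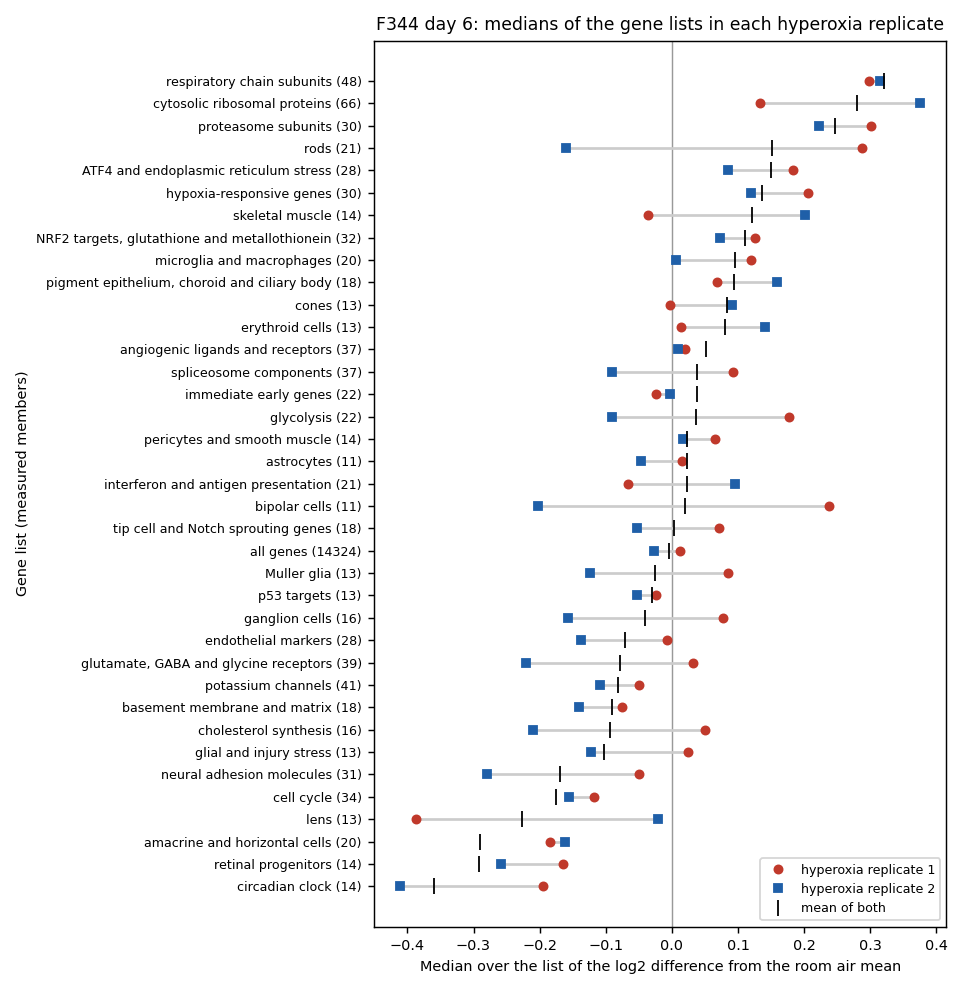
Rows are the 36 gene lists and all genes, with the number measured, and the x axis is the median log2 difference from the room air mean in hyperoxia replicate 1 (red circles), replicate 2 (blue squares) and their mean (black ticks). Respiratory chain and proteasome lists have both replicates at 0.22 to 0.32, the clock list at −0.19 and −0.41, and the rod list has them on opposite sides, at 0.29 and −0.16.

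In lists of this size, a count of 0 called is near the 1.19% called over all genes. Of 32 NRF2 targets, glutathione and metallothionein genes 12 lay above and 4 below room air on both arrays (20.7% and 22.0% of all genes did), with 0 called and a median of 0.11. Gsta4, which conjugates glutathione to lipid peroxidation products, read 7.59 and 8.23 against 6.96 and 7.22 (0.82, adjusted p = 0.0728), and Mt1 read 9.08 and 9.22 against 8.72 and 8.65 (0.47, adjusted p = 0.0851). Of 28 genes of ATF4 and endoplasmic reticulum stress 13 lay above and 4 below, beside the same shares of all genes, with 0 called and a median of 0.15. In the cholesterol pathway 1 of 16 genes rose (0.342% of all genes did), and the median was −0.09. It was the phosphomevalonate kinase Pmvk, from 6.35 and 6.55 to 7.19 and 7.15 (0.72, adjusted p = 0.0491). Of 13 p53 targets, 21 interferon and antigen presentation genes, 22 immediate early genes and 18 matrix genes 0 were called. Markers of other cells had counts near that share as well: 0 of 20 for microglia and macrophages, 0 of 13 for erythroid cells, 0 of 18 for pigment epithelium, choroid and ciliary body and 0 of 14 for skeletal muscle were called.

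Some of the rises, and few of the falls, were also called in SD retina. In SD rats of day 6, 319 genes rose (2.23%) and 81 fell (0.565%). The SD means share no array with this comparison, but both sets of calls use the same estimate of each gene's spread. The lists are therefore not independent. Of the 49 F344 rises 14 also rose in SD, 28.6% of the F344 list and 4.39% of the SD list, among them Higd1a, Fam162a, Calm2, Cox7b, Cwc15, Mettl5, Ostc, Sec11c, Slirp and Fbl. Of the 121 F344 falls 4 also fell in SD, 3.31% and 4.94% of the lists: Abca1, Slc38a5, Slc7a1 and Vac14. The F344 rises had a median of 0.40 in SD and the F344 falls of −0.06, against −0.01 over all genes. Slc38a5 was lowered by nearly the same amount (−0.93 in SD, −0.96 in F344), and Cdk4 differed by 0.08 in SD. The respiratory chain list had a median of 0.36 in SD and the clock list of 0.00. The hypoxia-responsive, ribosomal protein and proteasome lists had SD medians of 0.34, 0.45 and 0.48, with 8, 19 and 8 members called higher. In F344 their medians were 0.14, 0.28 and 0.25, with 3, 0 and 0 called higher. The cell cycle, retinal progenitor and amacrine and horizontal cell lists had SD medians of −0.01, −0.02 and −0.06. Tested directly, as the SD difference minus the F344 difference, 8 genes passed (0.0559%), 7 of them with the higher value in SD, and 1641 had an unadjusted p under 0.05. Slc35a4, a protein of the nucleotide sugar transporter family (10801066), read 7.29 and 7.59 in F344 hyperoxia against 7.87 and 8.22 in room air, a difference of −0.61, and differed by 0.73 in SD (interaction 1.34, adjusted p = 0.0192). Fibp, a protein that binds fibroblast growth factor, differed by −0.52 in F344 and 0.77 in SD (interaction 1.29, adjusted p = 0.0180). Plbd2, a lysosomal protein, fell by 0.59 in F344 and rose by 0.62 in SD (interaction 1.21, adjusted p = 0.0180). Cdk4 did not pass this test (adjusted p = 0.0905), nor did Nr1d1 (0.0994). No gene passed in every fit without 1 array: the count was 181 without F344 hyperoxia replicate 1 and 24 without replicate 2. It was 0 without either F344 room air array, either SD hyperoxia array or SD room air replicate 1 of day 6.

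The oxygen effect in F344 retina differed between days, for HIF targets among others. Tested as day 6 minus day 5, 146 genes passed (1.02%), 39 with the higher difference on day 6 and 107 with the lower, and 2093 had an unadjusted p under 0.05. Of the 30 hypoxia-responsive genes 10 were among the 39, and 0 among the 107, which are counts out of all 14324 genes. On day 5 alone, 8 of the 30 were called lower, against 18 of all genes. The list's median was −0.32 on day 5 and 0.14 on day 6. For Ak4 the difference was −1.25 on day 5 and 0.88 on day 6 (interaction 2.13 ± 0.21, adjusted p = 0.000414), and it was the only gene to pass without each of the 16 arrays in turn. On day 5 it read 5.89 and 5.83 in hyperoxia against 7.21 and 7.0 in room air, so that the hyperoxia pair lay below on day 5 and above on day 6. Slc16a3 (interaction 1.74, adjusted p = 0.0249), Egln3 (1.62, 0.00607), Ankrd37 (1.55, 0.00607) and the glycolytic regulator Pfkfb3 (1.46, 0.00607) followed. Of these, Egln3 read 6.29 and 6.2 against 5.93 and 6.05 on day 6 and differed by −1.36 on day 5. Vegfa passed as well (0.94 ± 0.19, adjusted p = 0.0350), with a difference of −0.83 on day 5 and of 0.11 on day 6. The further members were Bnip3, P4ha1, Fam162a, Pdk1 and Higd1a, at 1.24, 1.34, 1.22, 1.10 and 0.86. Of the 32 genes of the 39 with a sequence, 25 (78.1%) held ACGTG or GCGTG in the 250 bases before the start. The share was 42 of 85 (49.4%) for those with the lower difference and 46.95% for all on the array. The 39 include 10 genes of the hypoxia-responsive list, which itself had a share of 70.4%, so the 78.1% is not separate from it. Cdk4 had the most negative value (−1.29, adjusted p = 0.0159), made of 0.31 on day 5 and −0.99 on day 6. Mrpl38 (−1.28), the transcriptional regulators Irf2bpl (−1.27) and Zmiz2 (−1.20), Prrc2a (−1.26) and Tlcd3b (−1.22) were next. The F344 room air mean of Cdk4 was 10.75 on day 5 and 11.28 on day 6, and the hyperoxia mean 11.05 and 10.29. For Mrpl38 these were 6.50 and 7.36 in room air, and 6.95 and 6.52 in hyperoxia. Ucp2 and Dpysl4 had room air means of 7.625 and 8.45 on day 5, and of 8.55 and 9.03 on day 6. What raised the room air values of day 6 was not tested. The count was 2 and 4 without room air replicates 1 and 2 of day 6, 9 and 18 without hyperoxia replicates 1 and 2 of day 5, 21 without room air replicate 1 of day 5, and 53 or 66 without an SD hyperoxia array of day 5 or 6. It was 494 without F344 hyperoxia replicate 1 of day 6 and 156 without replicate 2.

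**Figure D5:**
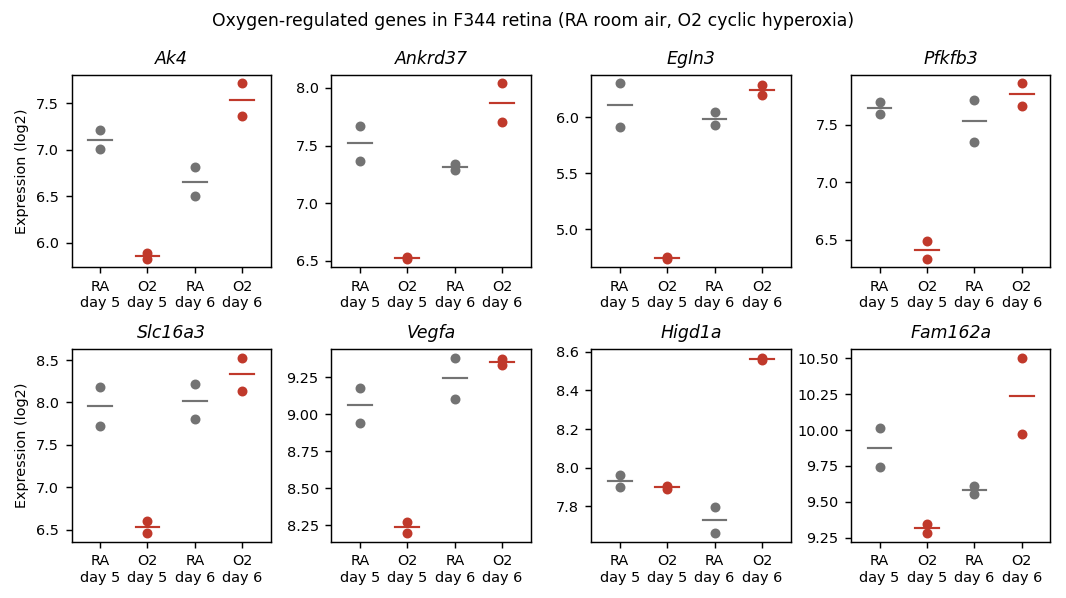
Each panel is an oxygen-regulated gene, with the log2 value of every F344 array on the y axis (scales differ between panels) and the groups room air (RA) and cyclic hyperoxia (O2) of day 5 and day 6 on the x axis; points are arrays and lines are group means. For Ak4 the hyperoxia arrays lie below room air on day 5 and above it on day 6, and for Vegfa they lie below on day 5 and overlap room air on day 6.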

How the data were processed

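Retinal RNA was hybridised to 16 single-colour Affymetrix gene arrays, 2 in each of 8 groups. The deposited values are log2 expression of 27342 probe sets, made by the authors with Partek 6.4 and RMA, per the submitters' processing notes, so a change common to most transcripts is not visible. Of the sets, 15097 had 1 gene symbol, 323 several and 11922 none, and 15067 were matched to GRCr8 by Entrez identifier; for 499 genes with several sets the brightest was used. limma 3.58.1 in R 4.3.3 fitted 1 mean per group to all 16 arrays (8 residual and 7.41 prior degrees of freedom), with Benjamini-Hochberg adjustment over 14324 genes, and was tested on simulated data. Errors after ± are moderated SEs, with precision limited by the few arrays. The gene lists, their members and the tests were chosen with earlier results of these data known, so lists are described by counts and medians. Genes named are the 12 largest changes each way, up to 4 called members of each list or the 2 of smallest p, 11 always given, the 6 largest differences each way between the hyperoxia replicates and, of each difference between days or strains, the 6 largest each way or, where under 3 passed, the 3 of smallest p; other names are examples chosen after their values were seen. Replicate numbers were not used to pair the arrays in the main fit. Alternatives are the left-out arrays, blocks, weights, fewer arrays, scaling, filter, probe set rules and the prior.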

Additional observations from a re-analysis of the deposited data

Results flagged for a closer look

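For 146 genes the F344 oxygen effect differed between days by the interaction test in limma, and the 6 largest each way are given. Day 6 minus day 5 was 2.13 for Ak4, 1.74 for Slc16a3, 1.62 for Egln3, 1.55 for Ankrd37, 1.46 for the glycolytic regulator Pfkfb3 and 1.38 for the membrane protein Tm4sf1. It was −1.29 for Cdk4, −1.28 for Mrpl38, −1.27 for Irf2bpl, −1.26 for Prrc2a, −1.22 for Tlcd3b and −1.20 for Zmiz2. Adjusted p-values lay between 0.000414 for Ak4 and 0.0471 for Tlcd3b.

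For 8 genes it differed between strains on day 6, 7 of which are given, the other being Rhob. SD minus F344 was 1.34 for Slc35a4, 1.29 for Fibp, 1.21 for Plbd2, 1.09 for the small GTPase Rnd2, 0.98 for the secreted kinase Pkdcc, 0.92 for Dpysl4 and −0.92 for the muscarinic receptor Chrm2. Adjusted p-values lay between 0.0180 for Fibp and 0.0330 for Chrm2. No group has enough arrays for a test of single arrays that stand apart.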

How the results depend on the processing

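Counts are given for the F344 day 6 effect, the difference between days and the difference between strains, which were 170, 146 and 8. With 1 array left out they ranged from 0 to 1621, from 2 to 494 and from 0 to 181. Array weights gave 0, 18 and 0, with a weight of 0.379 for both F344 hyperoxia arrays of day 6. Only the 8 F344 arrays gave 0 and 1, only the 4 of day 6 gave 0 (2001 and 1594 genes at an unadjusted p under 0.05 for the day 6 effect), and only the 8 arrays of day 6 gave 0 for the strains. A prior with trend and robust estimation gave 74, 61 and 3, quantile normalization 115, 76 and 4, and leaving out low genes 170, 146 and 5. The replicate block gave 140, 87 and 5. The deviations of the F344 pairs of day 6 correlated at −0.219, and those of any 2 groups at −0.287 to 0.519. These values cannot decide whether the numbers pair the arrays. With the numbers of the F344 hyperoxia arrays crossed, added after seeing the data, the block gave 102, 92 and 5. Centred medians, every probe set and mean probe sets kept all counts within 1.5 times. None of these, nor a left-out array, reversed a called gene that the text names by its rule. Among genes not called, Isl1 turned to −0.0013 with centred medians and Rhog to 0.0047 with quantile normalization. Leaving out 1 array moved Vegfa between −0.0305 and 0.25, Slc2a1 between −0.0367 and 0.20, Gfap between −0.34 and 0.0246, Scgn between −0.18 and 1.48, Zfp322a between −1.12 and 0.29, Isl1 between −0.64 and 0.69, Zcchc12 between −1.11 and 0.20, Crygd between −1.71 and 0.0751 and Rhog between −0.64 and 0.48. The causes were not tested. With 2 pools a group, 1 pool can decide a call, and signal near background hides changes of dim genes.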
